A study of Mus musculus with 4 samples.

Results

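The early response of Snail1-WT bone marrow mesenchymal stem cells to TGF-b1 was read as the difference between 2 arrays, one of cells given TGF-b1 for 2 h and one of untreated cells of the same genotype. Members of the response were all genes with a probe set that carries 1 gene symbol, each represented by the probe set with the highest mean over the 4 arrays of the study. This gave 22180 genes, and the 13308 with the highest means were kept for counts. Of the kept genes, 95 were at least 2-fold higher after TGF-b1 (0.714%) and 36 were at least 2-fold lower (0.271%).

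The study used mesenchymal stem cells from mouse bone marrow, which grow attached to plastic and are able to turn into bone, cartilage or fat cells. Cells were Snail1-WT or Snail1-KO, the latter without functional Snail1, a zinc finger repressor encoded by Snai1. Each genotype was measured untreated and after 2 h of TGF-b1, with 1 array per group, so no difference has a replicate check and no test was possible. How Snail1 was deleted, whether a population came from 1 clone or 1 animal, and the dose of TGF-b1 are not stated in the labels used here.

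TGF-b1 binds a pair of serine/threonine kinase receptors, which phosphorylate SMAD2 and SMAD3. These join SMAD4, enter the nucleus and act with other transcription factors at short DNA elements, and among their quickest targets are the genes for proteins that shut the pathway off. In stromal cells the pathway is known for inducing matrix, contractile proteins and secreted factors, and for opposing the fat and bone fates at some stages.

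All values are on the log2 scale after RMA, so that a difference of 1 means 2-fold. Levels are given in the order untreated, then treated. An error was set beside each difference, called the noise SD below. It is the SD of a difference between 2 arrays at that gene's level, taken from how far the responses of the 2 genotypes disagreed, true disagreements included. It lay between 0.08 and 0.25 over the kept genes, with a median of 0.16. In bulk RNA, fewer cells of a type and less RNA per cell cannot be told apart.

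Most but not all markers of the labelled cell type were well above the lowest kept mean. Of 11 measured stromal markers 9 were kept, with Col1a1 at 11.94, Vim at 11.29, Pdgfra at 11.10 and Pdgfrb at 10.96 in untreated cells. Thy1 measured 5.62, and Nt5e at 4.62 and Lepr at 2.93 were not kept. The summed linear values of the stromal markers were 14890 untreated and 15386 treated. Those of 15 haematopoietic markers were 1803 and 1539, most of it Cd34 at 10.49, and 10 of the 15 lay below 4.51, the lowest mean kept. Ptprc, the pan-leukocyte gene, measured 3.15 and the macrophage gene Adgre1 3.41. The 14 endothelial markers summed to 314 and 305 and the 13 epithelial markers to 300.1 and 322, with Pecam1 at 4.46 and Epcam at 3.87. Of the 15 haematopoietic markers, Ly6c1 and Cd14 were at least 1.5-fold lower after TGF-b1, at -1.08 and -0.64, and 0 were 1.5-fold higher. The shares of all measured genes were 1.86% lower and 2.3% higher. The part of these markers in the response was not tested. Snai1 itself measured 6.69 and 7.63 in Snail1-WT cells and 5.09 and 5.34 in Snail1-KO cells. Where its probes lie relative to the deleted sequence is not stated in the labels, so the signal left in Snail1-KO cells does not measure remaining function.

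The response was lopsided toward higher genes at the top and nearly even below. At 4-fold or more there were 7 genes higher and 2 lower, between 2-fold and 4-fold 88 and 34, and between 1.5-fold and 2-fold 235 and 215. In all, 330 kept genes were at least 1.5-fold higher (2.48%) and 251 lower (1.89%). The median difference over the kept genes was -0.03, and the SD of the differences over them was 0.29. Of the 95 higher genes, 46 were among the 4436 kept genes with the highest means, 37 among the middle 4436 and 12 among the lowest 4436, although a filter on the mean of all arrays favours genes that are high in the treated cells. At the edge of the threshold, Lrig3 and Ubtd1 lay just inside, and Tgfb3 at 0.999 and Lef1 at 0.998 just outside. On the lower side Nr2f2 was just inside and Klf5 just outside at -0.99.

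**Figure D1:**
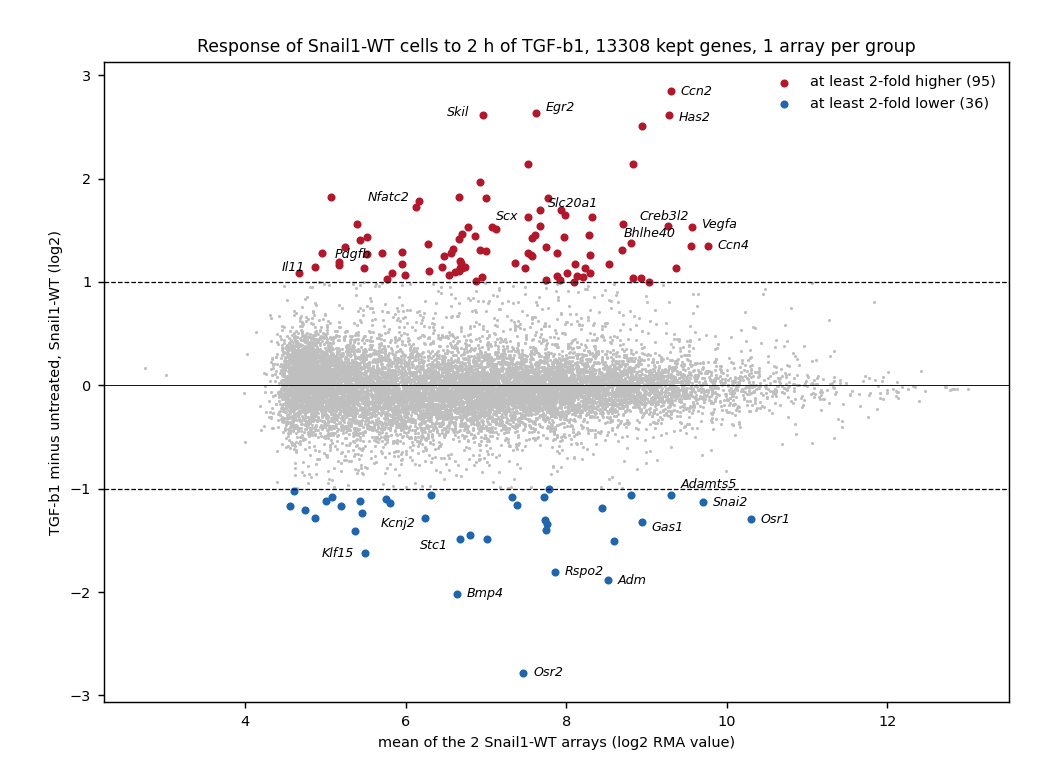
Difference between the treated and the untreated Snail1-WT array (vertical axis, log2) against the mean of both arrays (horizontal axis, log2 RMA value) for 13308 kept genes; red points are the 95 genes at least 2-fold higher, blue points the 36 at least 2-fold lower, grey points all others. Dashed lines mark 2-fold, and the grey cloud narrows toward high levels while the called genes spread over most of the range.

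The inhibitory arm of the TGF-b pathway had the highest median of the 60 lists over measured members, while over kept members bone and cartilage genes, at 0.32, and growth factor ligands, at 0.30, were above it. Of 15 measured SMAD feedback and co-repressor genes 5 were at least 2-fold higher and 0 lower, against 0.478% higher and 0.216% lower among all 22180 measured genes, and the median difference was 0.29 against -0.01 over all measured genes. The same shares stand behind the 2-fold counts of the lists below. At 1.5-fold the shares were 2.3% higher and 1.86% lower. A single 2-fold member of a list is no result about that list. Skil, a SMAD co-repressor, measured 5.65 and 8.27, and Pmepa1, a membrane protein that sequesters SMADs, 7.69 and 10.20. Smad7 measured 6.37 and 7.89, a difference of 1.51. Smad7 encodes an inhibitory SMAD that blocks the receptor. Smad6, its relative with a preference for the BMP branch, measured 6.11 and 7.25, a difference of 1.14. Ldlrad4, a membrane protein that keeps SMAD2 and SMAD3 from the receptor, measured 6.87 and 8.30, a difference of 1.43. Smurf1, a ubiquitin ligase that SMAD7 recruits to the receptor, was under the threshold at 0.91.

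Of 23 genes of TGF-b ligands, activators and receptors, 2 were at least 2-fold higher and 0 lower. Fstl3, an extracellular antagonist of activins, measured 7.17 and 8.81, a difference of 1.64. Ltbp2, of the latent TGF-b binding protein family found on elastic microfibrils, measured 8.80 and 9.93, a difference of 1.13. The ligand gene Tgfb3 measured 8.30 and 9.30. The receptors did not move as a block. The type I receptor genes Tgfbr1 and Acvr1 were each higher by 0.71, the type II receptor gene Tgfbr2 differed by -0.37 and the co-receptor gene Tgfbr3 by -0.40. Among the signal carriers, Smad2 differed by 0.11, Smad3 by -0.40 and Smad4 by 0.06.

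In the sister BMP branch, Bmp4 measured 7.65 and 5.64 and was the only one of 24 BMP and ID genes at least 2-fold apart. Id1 and Id2, inhibitors of bHLH factors and classic BMP targets, differed by -0.64 and -0.73. Smad9, a BMP-type SMAD, was higher by 0.98. Nbl1, a secreted BMP antagonist outside that list, measured 6.43 and 7.48, a difference of 1.04. The genes Bmp4, Id1 and Id2 thus had their lower value in the treated array, while a secreted antagonist was higher. Over the 24 listed genes the median was 0.04, and 13 were higher by any amount. In Snail1-KO cells Id1 differed by -0.01 and Id2 by 0.48.

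**Figure D2:**
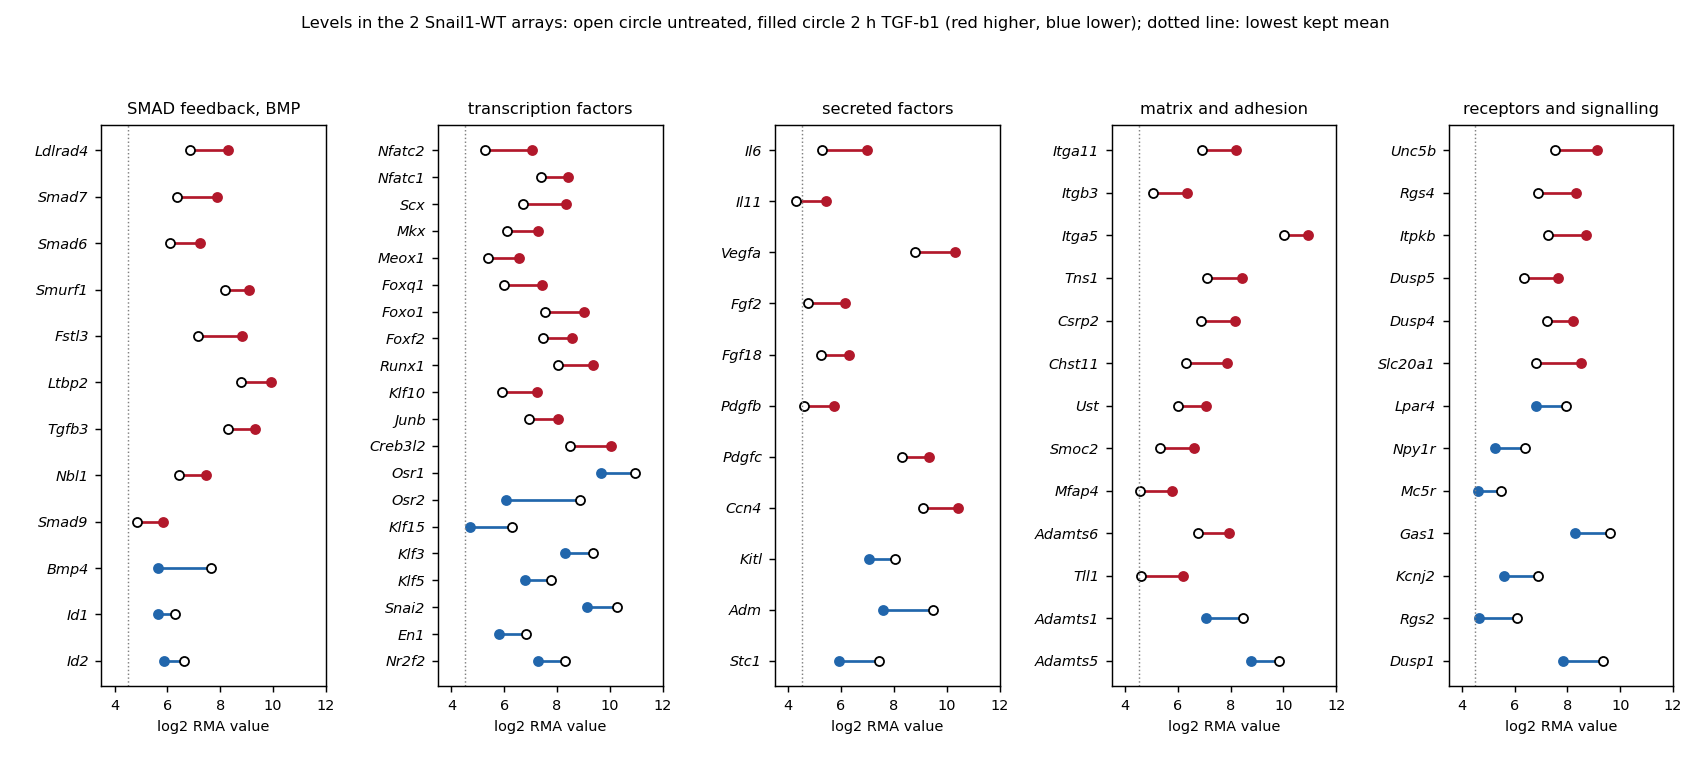
Log2 RMA values (horizontal axis) of selected genes in the 2 Snail1-WT arrays, in 5 panels by role; open circles are untreated cells, filled circles cells after 2 h of TGF-b1 (red where higher, blue where lower), and the dotted line is the lowest kept mean, 4.51. Mc5r, Klf15, Il11, Pdgfb and Mfap4 have one end close to the dotted line, whereas Vegfa, Ccn4, Itga5 and Osr1 lie far above it.

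Transcription factor genes differed in both directions. Of 23 AP-1, EGR and NR4A genes 3 were at least 2-fold higher and 0 lower, with a median of 0.25. Egr2, a zinc finger factor of the early growth response family, measured 6.31 and 8.94. Junb, an AP-1 subunit, measured 6.92 and 8.05, a difference of 1.13. Ier3, a short-lived stress response protein on the same list and not a DNA-binding factor, measured 8.89 and 10.23, a difference of 1.34. The NFAT factors answer calcium and calcineurin. Nfatc2 measured 5.28 and 7.06, a difference of 1.78, and Nfatc1 measured 7.41 and 8.43, a difference of 1.02.

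Among 43 bHLH, SOX, forkhead and other lineage factors 6 were at least 2-fold higher and 1 lower. Scx, scleraxis, the bHLH factor of tendon progenitors, measured 6.70 and 8.34, a difference of 1.63. Mkx, the homeobox factor mohawk that also acts in tendon, measured 6.09 and 7.28, a difference of 1.18. Both tendon regulators were therefore higher after TGF-b1. Runx1, a runt-domain factor of blood and early cartilage, measured 8.04 and 9.35. Runx1t1, a co-repressor gene known as the fusion partner of RUNX1 in leukaemia, went the other way at 7.75 and 6.27. Sox9, the master regulator of cartilage, was higher by 0.88.

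The forkhead genes past 2-fold were all higher ones. Foxo1, a factor restrained by insulin signalling, measured 7.56 and 9.02 and Foxq1 5.97 and 7.44, although second probe sets of these genes gave differences of 0.80 and 0.67. Foxf2, a mesenchymal forkhead factor, measured 7.46 and 8.55. Creb3l2, a membrane-bound factor that is cleaved to activate secretory pathway genes, measured 8.50 and 10.03, a difference of 1.54 that stood alone among 29 ER stress and secretory pathway genes, of which none other reached 2-fold. Meox1, a homeobox factor, was higher by 1.18, Glis1, a Kruppel-like zinc finger factor, by 1.09 and Aff1, a scaffold of the super elongation complex, by 1.04. Zfp469, at 6.87 and 8.68, is a zinc finger gene linked to collagen in the cornea.

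The Kruppel-like factors were divided. Klf10, also known as TGF-b inducible early gene, measured 5.93 and 7.25, and Klf13 was higher by 0.82. Klf15 measured 6.31 and 4.69, Klf3 9.35 and 8.28, and Klf5 7.77 and 6.78. Klf4 differed by -0.66. Klf15 and Klf5 act in fat cell formation, and both are among the 4 of 27 adipogenic genes at least 1.5-fold lower, where 0 were 1.5-fold higher. The shares of all measured genes were 1.86% lower and 2.3% higher, so 0 higher in a list of 27 says little. The whole adipogenic list had a median of -0.10.

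Among the lower transcription factor genes were several of limb and body patterning. Osr1, one of the odd-skipped zinc finger genes with Osr2, measured 10.95 and 9.65, and Osr2 8.86 and 6.08. Snai2, the close relative of Snai1, measured 10.27 and 9.14, while Snai1 was higher by 0.94. Mab21l2, a gene of eye and body wall development, measured 8.43 and 7.08. En1, an engrailed homeobox gene, measured 6.84 and 5.78, and Nr2f2, an orphan nuclear receptor, 8.29 and 7.28. Shox2, a limb homeobox gene, differed by -0.81. Lbh, a transcription cofactor of limb and heart, measured 9.04 and 7.85. Of 32 homeobox and patterning genes 2 were at least 2-fold higher and 3 lower, with a median of 0.08, so the list as a whole leaned neither way. More genes at least 2-fold lower are named above than these 3, so the list does not cover all of them.

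The starts of these genes were examined in RefSeq promoter windows of assembly GRCm38.p6, which run from 250 bases before to 50 after an annotated start. Windows were found for 63 of the 95 higher and 21 of the 36 lower genes. The stretches shown carry the motifs discussed next, and capitals mark the motif. Smad6 holds the SMAD palindrome across its annotated start, at chr9:64022050-64022169 on the minus strand. Dusp5 (chr19:53529045-53529144, plus strand) holds 2 copies of the CArG box, the element of serum response factor, shortly before its start. Il11 (chr7:4778142-4778261, minus strand) holds an AP-1 site.
Smad6: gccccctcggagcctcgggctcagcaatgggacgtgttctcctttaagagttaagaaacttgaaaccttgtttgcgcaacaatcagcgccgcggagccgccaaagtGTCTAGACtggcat
Dusp5: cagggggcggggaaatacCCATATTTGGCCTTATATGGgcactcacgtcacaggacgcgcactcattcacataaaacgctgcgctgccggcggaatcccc
Il11: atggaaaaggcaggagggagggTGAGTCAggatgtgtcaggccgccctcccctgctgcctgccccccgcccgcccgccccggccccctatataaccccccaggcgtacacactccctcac

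Each motif was searched on both strands, and a gene counted once if any of its windows held it. The palindrome GTCTAGAC was in 0.213% of all 32851 windows, in 30 of 10384 kept genes (0.289%), in 2 of the 63 higher genes (Smad6 and Fbxw7) and in 0 of the 21 lower genes. The short SMAD box CAGAC, which shares 4 of its letters with that palindrome, was in 49.6% of all windows and 52.6% of the kept genes, in 63.5% of the higher and 66.7% of the lower genes. The CArG box was in 1.63% of all windows, in 1.55% of kept genes and in 4 of the higher genes (Egr2, Dusp5, Myo1e and Pdgfc), which is 6.35%. It was in 0 of the 21 lower genes. The TEAD element GGAATG was in 14.7% of all windows, 14.3% of kept genes, 12 higher genes (19.0%) and 0 lower genes. The AP-1 site TGANTCA was in 7.81% of windows, 6.31% of kept genes, 6 higher genes (9.52%), among them Il6 and Il11, and 3 lower genes (14.3%). The E-box CACGTG was in 7.15% of all windows, 11.5% of kept genes, 7.94% of higher and 23.8% of lower genes, the last being 5 genes. The GC-rich element GGCGC was in 36.9% of all windows, 67.1% of kept, 69.8% of higher and 52.4% of lower genes, and the CRE TGACGTCA in 1.79% of windows, 3.43% of kept genes, 0 higher genes and 1 lower gene. These matches are descriptions of letters near annotated starts.

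Of 18 measured circadian clock genes, all kept, 4 were at least 2-fold higher and 0 lower. The shares of all kept genes were 0.714% and 0.271%, so 0 lower in a list of 18 says little. Bhlhe40, a repressor of clock-driven transcription, measured 8.13 and 9.50, a difference of 1.37. Its relative Bhlhe41 measured 4.13 and 5.21, a difference of 1.09, with the untreated value below the lowest mean kept. Activators of the clock were among the 4 as well. Arntl, which encodes BMAL1, measured 7.94 and 9.12, a difference of 1.18. Npas2, a partner of BMAL1 in place of CLOCK, measured 5.92 and 7.20, a difference of 1.28. Of the 18, 2 were at least 1.5-fold lower, Dbp at 7.27 and 6.56 and Per1 at 8.26 and 7.64. Nr1d1, a repressor of Arntl, measured 8.92 and 8.38, under that threshold. The median of the list was 0.05, and in Snail1-KO cells the 4 higher genes differed by 1.68, 1.07, 1.03 and 0.98 in the order given.

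**Figure D3:**
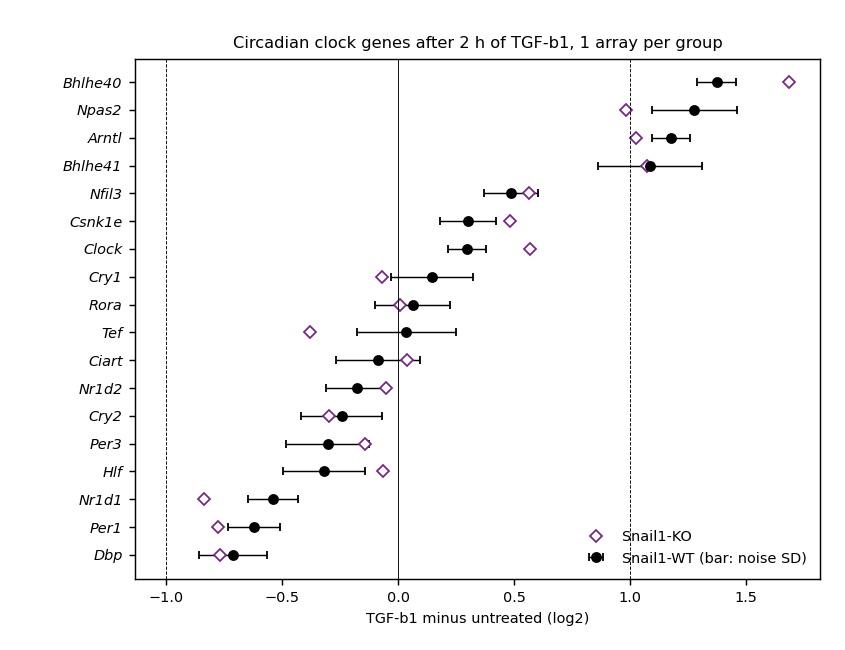
Difference between treated and untreated cells (horizontal axis, log2) for the 18 measured circadian clock genes; filled circles are Snail1-WT cells with a bar of 1 noise SD on each side, open diamonds Snail1-KO cells, and dashed lines mark 2-fold. Bhlhe40, Npas2, Arntl and Bhlhe41 lie at 1.37, 1.28, 1.18 and 1.09, and Nr1d1, Per1 and Dbp at the other end at -0.54, -0.62 and -0.71.

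Secreted growth factors and cytokines were the list with the most 2-fold members, 10 of 47 higher and 0 lower, with a median of 0.15 over the measured and 0.30 over the 38 kept members. The shares of all measured genes were 0.478% and 0.216%. The secreted factor genes Bmp4, Rspo2, Adm and Stc1, each at least 2-fold lower, were not on this list. The 0 therefore does not cover all secreted factors. Il6 measured 5.27 and 6.999, a difference of 1.73. Il11, of the same cytokine family and sharing its signalling receptor, measured 4.31 and 5.45, a difference of 1.14 from an untreated value below the lowest mean kept. Vegfa, the angiogenic factor, had high levels of 8.80 and 10.33. Fibroblast growth factor genes were higher, with Fgf2 at 4.73 and 6.14 and Fgf18 at 5.26 and 6.29. The platelet-derived growth factor genes Pdgfb, at 4.58 and 5.75, and Pdgfc, at 8.31 and 9.34, were higher as well. Their receptors went apart, with Pdgfrb at 10.96 and 11.59 and Pdgfra at 11.10 and 10.62. Among matricellular CCN genes, Ccn4 measured 9.10 and 10.44 and Ccn1 11.44 and 12.24. Ccn2, connective tissue growth factor, measured 7.88 and 10.72 by its brighter probe set and 4.14 and 5.20 by a dimmer one. Hbegf, a membrane-shed ligand of the EGF receptor, measured 7.76 and 9.90.

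Other secreted signals were lower, among them Bmp4 and Rspo2, which are described with their pathways. Kitl, stem cell factor, a niche signal for blood stem cells, measured 8.05 and 7.07. Adm, a vasodilator peptide, measured 9.47 and 7.58, and Stc1, a glycoprotein hormone, 7.42 and 5.94. Edn1, the vasoconstrictor endothelin, was higher by 0.83, under 2-fold. Adm and Edn1 are known for opposite actions, but they are a pair picked from a longer list. Of 27 measured vasoactive and hormone-like peptide genes 0 were at least 2-fold higher and 2 lower. By any amount 14 were higher and 13 lower, with a median of 0.005. Of 33 chemokine and acute phase genes 0 were at least 2-fold apart, and 3 were at least 1.5-fold lower, Ccl27a at -0.98, the pattern recognition gene Ptx3 at -0.75 and Cxcl1 at -0.69, against 0 higher. The shares of all measured genes at 1.5-fold were 1.86% lower and 2.3% higher. Il6 was thus higher while no gene on the chemokine and acute phase list was 1.5-fold higher.

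R-spondins amplify WNT signals by protecting Frizzled receptors. Rspo2 measured 8.76 and 6.96, and Rspo3 differed by -0.86. The receptor gene Fzd8 differed by -0.82 and Fzd6 by 0.64, while the nuclear effector Lef1 measured 4.98 and 5.98. Over 50 WNT genes 0 were at least 2-fold higher and 1 lower. In the Notch and Hedgehog list of 23 genes, Gas1, a Hedgehog co-receptor, measured 9.61 and 8.28 and was the only 2-fold member. Boc, another Hedgehog co-receptor, was higher by 0.91 and the Notch ligand Jag1 by 0.96.

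G protein-coupled receptors differed in both directions. Of 50 measured, 1 was at least 2-fold higher and 2 lower, and at 1.5-fold the counts were 5 and 7. The shares of all measured genes were 0.478% and 0.216% at 2-fold, and 2.3% and 1.86% at 1.5-fold. Avpr1a, the vasopressin receptor, measured 5.94 and 7.90. The lysophosphatidic acid receptor gene Lpar4 measured 7.96 and 6.80 and the neuropeptide Y receptor gene Npy1r 6.38 and 5.24. Htr2a, a serotonin receptor, differed by -0.91 and Mc5r, a melanocortin receptor, by -0.90. Outside the list, Mrgprf, an orphan receptor gene, measured 8.39 and 7.09 and Gpr153, also an orphan, 7.35 and 8.41.

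Regulators of these receptors moved apart. Rgs4, which speeds the shut-off of Gi and Gq proteins, measured 6.88 and 8.33, whereas Rgs2, with a preference for Gq, measured 6.07 and 4.66. A second, dimmer probe set of Rgs2 gave -0.16. Itpkb, the kinase that consumes inositol trisphosphate, measured 7.25 and 8.69. Homer1, a scaffold of calcium signalling, was higher by 1.09, and Camk2n1, an inhibitor of the calcium kinase CaMKII, by 1.07. The inward rectifier potassium channel gene Kcnj2 measured 6.88 and 5.599, a difference of -1.28, and was the only one of 51 ion channel genes at least 2-fold apart.

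Several other genes of receptors, decoys, ephrins and transporters were higher. Unc5b, a netrin receptor, measured 7.51 and 9.14 and Efnb1, a transmembrane ephrin, 7.68 and 8.73, and they were the 2 of 49 guidance genes past 2-fold. The TNF receptor family contributed Tnfrsf11b, the decoy osteoprotegerin, at 5.76 and 7.57, Relt at 5.59 and 6.96, and Tnfrsf1b at 7.76 and 8.84. Among 44 solute carriers Slc20a1, a sodium-phosphate transporter, stood alone past 2-fold at 6.82 and 8.52. Ank, a membrane protein that exports pyrophosphate and citrate, was higher by 0.88. Slc35d2, a nucleotide sugar transporter outside the list, measured 5.14 and 3.97.

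Matrix synthesis differed by class. Of 24 collagen genes 0 were at least 2-fold apart, although 18 of 24 were higher by any amount, where the share of all measured genes was 48.8%, and the median was 0.16. Col27a1, a fibrillar collagen of cartilage, had the highest difference among them at 0.71. Col1a1 measured 11.94 and 12.07, Col1a2 11.17 and 11.24 and fibronectin (Fn1) 12.36 and 12.49. The abundant matrix genes therefore differed by 0.07 to 0.13, near the noise SD of 0.08 at their level. The collagen crosslinking enzyme gene Plod2 was higher by 0.82.

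Non-collagen matrix genes held a few larger differences but had a lower median than the collagens. Of 41 matricellular and elastic matrix genes 3 were at least 2-fold higher and 0 lower, 22 were higher by any amount and the median was 0.09. Smoc2, a calcium-binding matricellular protein, measured 5.31 and 6.60, and Mfap4, of elastic microfibrils, 4.58 and 5.77. Ltbp2, named above, was the other. Tgfbi, an integrin-binding matrix protein named for its induction by TGF-b, was higher by 0.83, elastin (Eln) by 0.61 and asporin (Aspn) by 0.72.

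The enzymes of hyaluronan and other glycosaminoglycans had a median of 0.17, with 3 of 44 at least 2-fold higher and 0 lower. At 1.5-fold, 10 were higher, where the share of all measured genes was 2.3%, and 2 lower, where it was 1.86%. Has2, a hyaluronan synthase, measured 7.97 and 10.58 and Gfpt2, which opens the hexosamine route to its sugar precursor, 6.45 and 8.59. Chst11, a chondroitin sulfotransferase, measured 6.31 and 7.85, a difference of 1.53. Has1, a second synthase, was higher by 0.96, Chst2, a sulfotransferase of keratan-type sugars, by 0.85, and Ust, a uronyl sulfotransferase outside the list, by 1.07. The degradation side was split. Cemip2, outside the list, a cell surface protein reported as a hyaluronidase, measured 7.24 and 8.52, whereas its paralog Cemip, which takes part in hyaluronan breakdown, measured 8.98 and 8.08.

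Extracellular proteases were also divided. Adamts6 measured 6.77 and 7.95, while the aggrecan- and versican-cleaving enzyme genes Adamts1 and Adamts5 measured 8.46 and 7.06, and 9.84 and 8.78. Of 31 matrix proteases and inhibitors 1 was at least 2-fold higher and 2 lower, and at 1.5-fold 8 were higher and 2 lower. Tll1, a tolloid-like protease of the BMP1 family that is outside this list, measured 4.62 and 6.18. Timp3, the matrix-bound inhibitor, was higher by 0.75. Plaur, the urokinase receptor, was higher by 0.87, while thrombomodulin (Thbd), an anticoagulant receptor, differed by -0.84.

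Integrin and focal adhesion genes were higher by any amount in 26 of 32 cases, where the share of all measured genes was 48.8%, with 3 at least 2-fold higher, 0 lower and a median of 0.18. Itga11, a collagen receptor subunit of fibroblasts, measured 6.93 and 8.19, and Itgb3, the partner of the alpha-v subunit in binding vitronectin and latent TGF-b, 5.07 and 6.35. Tns1, tensin, which ties integrins to actin, measured 7.09 and 8.42. Itga5, the fibronectin receptor subunit, was higher by 0.93 from a level of 10.01, and Itgb5 by 0.70.

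Actin-related genes were higher by any amount in 41 of 51 cases, against the same 48.8%. The median was 0.14, with 3 at least 2-fold higher and 0 lower. The SD of single differences over kept genes was 0.29, and the error of a list median was not estimated. Rflnb, a filamin-binding protein, measured 6.10 and 7.91, and Nuak1, a kinase that controls myosin phosphatase, 7.92 and 9.49. Csrp2, a LIM protein of smooth muscle, measured 6.89 and 8.17. Outside the list, the unconventional myosin genes Myo1d, at 7.52 and 8.70, and Myo1e, at 7.23 and 8.25, were higher. Mical2, an actin-oxidising enzyme on the list, was higher by 0.93. Smooth muscle actin, Acta2, measured 11.74 and 11.81, a difference of 0.07 against a noise SD of 0.08.

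The RAS-like pair Rasl11b and Rasl11a went apart, at 4.16 and 5.98 for the first, whose untreated value lay below the lowest mean kept, and 8.30 and 7.47 for the second.

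The dual-specificity phosphatases that limit MAP kinases did not move together. Dusp5, specific for ERK, measured 6.35 and 7.65, and Dusp4 measured 7.23 and 8.23, under the threshold at 0.99. Dusp10 was higher by 0.88 and Dusp6 by 0.70, or by 0.40 as the mean of its probe sets. Dusp1, the phosphatase for p38 and JNK that glucocorticoids induce, measured 9.35 and 7.84. Of 24 glucocorticoid-inducible genes 5 were at least 1.5-fold lower, Klf15, Dusp1, Pdk4 at -0.91, Per1 and Angptl4 at -0.61, and 2 were higher, of which Sgk1, at 0.80, passed the filter on low values. The shares of all measured genes were 1.86% lower and 2.3% higher.

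Of 46 ubiquitin ligase and deubiquitinase genes 0 were at least 2-fold apart, but 3 ligase genes outside that list were higher. Fbxw7, the substrate receptor of a ubiquitin ligase that targets cyclin E and MYC, measured 5.89 and 7.03, and Rnf19b, a RING-type ligase, 7.09 and 8.78. Pdzrn3, another ligase gene, was higher by 1.13, and Otud1, a deubiquitinase, differed by -0.87. Of the cell cycle inhibitors, Gadd45b and Gadd45g were higher by 0.89 and 0.81, whereas Cdkn2d, Cdkn1b and Trp53inp1 differed by -0.67, -0.52 and -0.64. Myc measured 9.82 and 10.29. Ppp1r13l, an inhibitor of p53, measured 6.14 and 7.58, and Sertad4 6.27 and 7.58.

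Metabolic genes with large differences were few. Hk2, the hexokinase that starts glycolysis, was higher by 0.96, and Bpgm, which makes bisphosphoglycerate, measured 5.85 and 7.10. Pdk4, which blocks pyruvate oxidation, and Txnip, which restrains glucose uptake, differed by -0.91 and -0.94. Rdh10, the first step from retinol to retinoic acid, was higher by 1.01, and cytoglobin (Cygb), a haem protein of stromal cells, measured 6.08 and 7.28. The prostaglandin synthase gene Ptgs2 measured 10.57 and 11.56, a difference of 0.99, while Ptges, the next enzyme toward prostaglandin E2, differed by -0.26. Of 27 oxidative stress genes 21 were lower by any amount, where the share of all measured genes was 51.2%, with a median of -0.10 and 0 at least 2-fold apart. Housekeeping genes were lower in 11 of 13 cases with a median of -0.09, so this list is close to them.

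In 21 lists no measured member was at least 2-fold apart, and their medians lay between -0.11 and 0.16. Among them were 28 chromatin modifiers, 28 ribosome biogenesis genes, 29 S and M phase genes, 18 sterol synthesis genes, 37 genes of fatty acid and phospholipid metabolism, 13 heat shock genes, 11 cell surface proteoglycans, 14 endothelial and 13 epithelial markers and 13 housekeeping genes. The S and M phase genes spanned only -0.26 to 0.35, and the housekeeping genes -0.23 to 0.13. In the interferon list Irgm1, an immunity-related GTPase, measured 6.13 and 7.27, while Ifit2, Ifih1 and Bst2 differed by -0.73, -0.72 and -0.59.

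**Figure D4:**
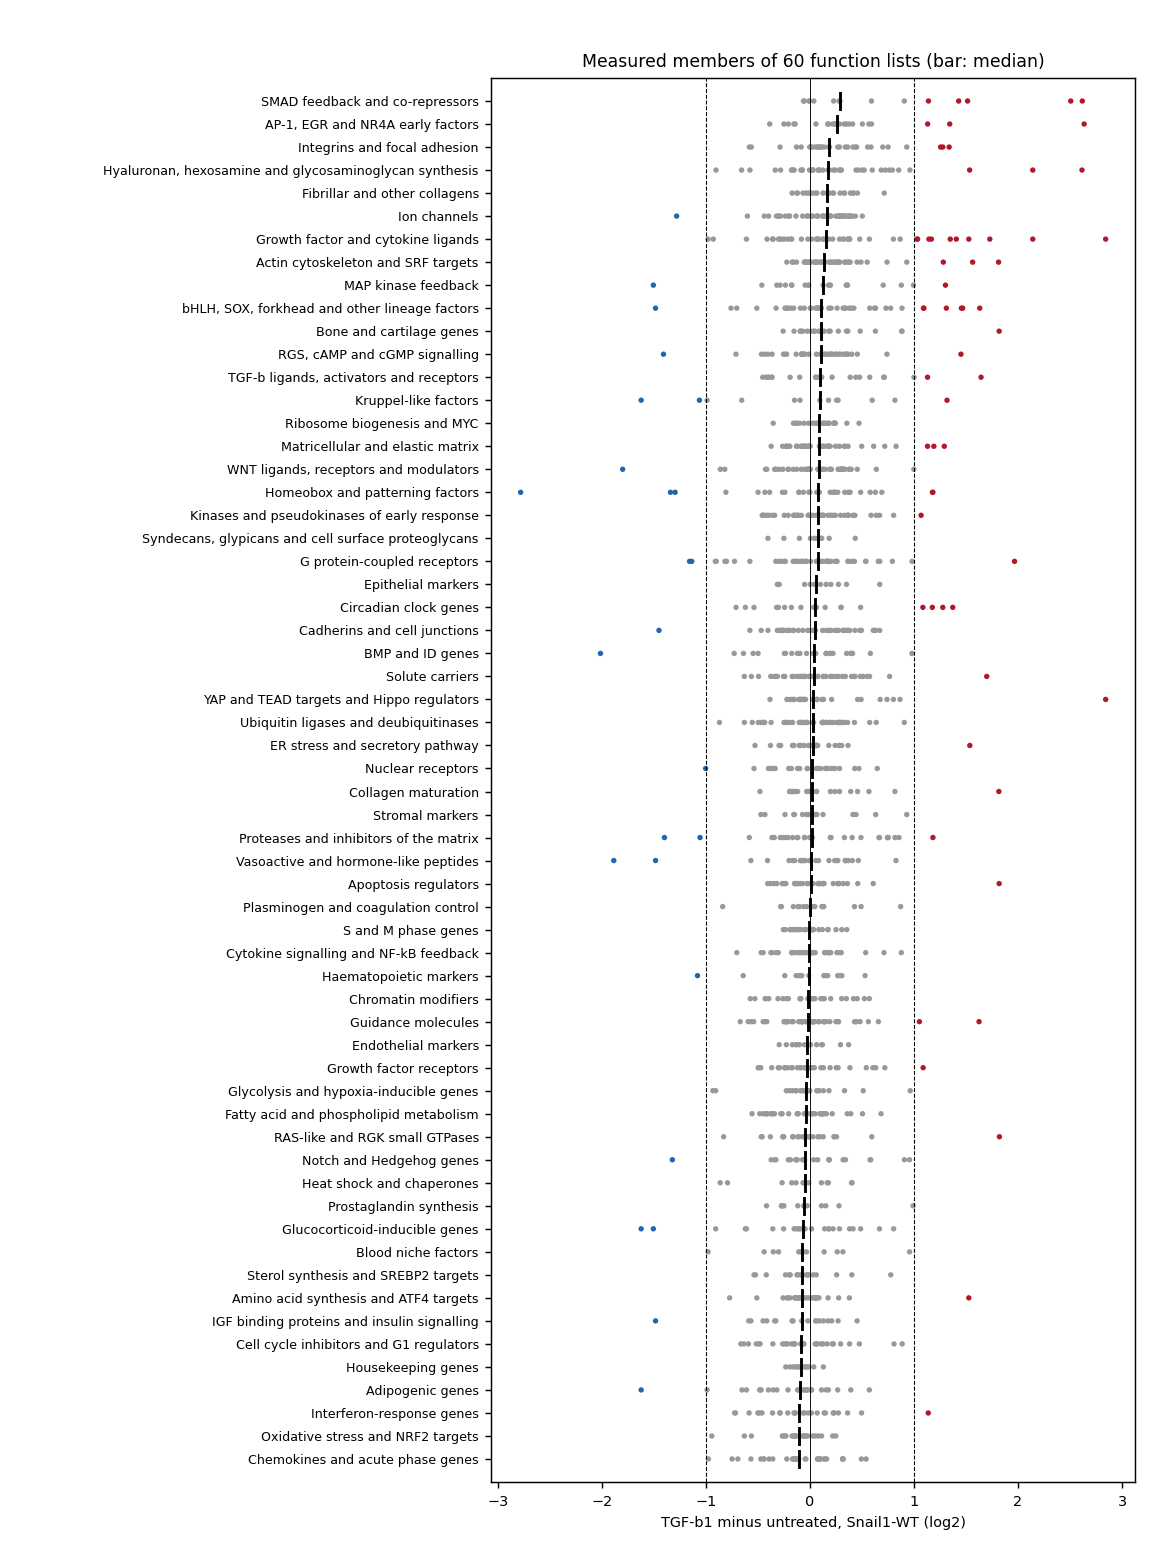
Difference between treated and untreated Snail1-WT cells (horizontal axis, log2) for every measured member of 60 function lists, ordered by their medians (black bars); red and blue points are at least 2-fold higher or lower, grey points are not, and dashed lines mark 2-fold. SMAD feedback genes are at the top with a median of 0.29 and chemokine and acute phase genes at the bottom with -0.11, and the ligand list has the most red points, 10.

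The remaining 2-fold genes have varied or poorly described functions. Higher were Lrrc15, a leucine-rich repeat membrane protein of activated fibroblasts, at 4.81 and 6.24, Prag1, a pseudokinase scaffold, at 5.96 and 7.38, Zswim6 at 7.66 and 8.92, Pxdc1 at 6.95 and 8.20, Kif26b, a kinesin-like protein, at 7.60 and 8.66, and Trabd2b, a membrane protease acting on WNT proteins, at 6.17 and 7.32. Inava measured 5.74 and 6.84, Lrig3 8.54 and 9.54, Ubtd1 7.59 and 8.60 and Prss46 4.57 and 5.91. Lower were Amigo2, an adhesion molecule and the only 2-fold member of 45 cadherin and cell junction genes, at 7.53 and 6.08, Fam102a at 7.87 and 6.78, Ppm1k, a mitochondrial phosphatase, at 5.57 and 4.45, Tmem74 at 5.51 and 4.23, Ttc30b at 5.34 and 4.14, and Ly6c1, a surface antigen of monocytes and endothelial cells, at 5.62 and 4.54. A further 7 genes, 3 higher and 4 lower, carried clone, pseudogene or small RNA names and are counted only. Genes in near-identical families cannot be assigned with certainty. They were Pcdhga10 (-1.02), the interferon-inducible GTPase gene 9930111J21Rik2 (1.27), Spin2d (1.28, with -0.16 from a second probe set) and the histone gene H4c17 (-1.17). In 4 of the 95 higher and 5 of the 36 lower genes, the lower of the 2 arrays was below 4.51, so the sizes of those differences are uncertain.

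Snail1-KO cells gave the only other measurement of a response, in another genotype. The Snail1-KO arrays do not enter the Snail1-WT differences. They do enter the choice of probe set, the filter on the mean of 4 arrays and the noise SD. Of the 95 higher genes 92 were at least 1.5-fold higher there, against 3.31% of all kept genes, and 68 at least 2-fold, against 0.999%. Of the 36 lower genes 30 were at least 1.5-fold lower there, against 1.83%, and 20 at least 2-fold, against 0.308%. The median difference of the 95 was 1.28 in Snail1-WT cells against 1.33 in Snail1-KO cells, and 53 were larger in the latter. For the 36 lower genes the medians were -1.22 and -1.03, and 6 were larger in Snail1-KO cells. The members were chosen in Snail1-WT cells, which favours larger values there. Among the genes described above, the gaps toward a larger value in Snail1-KO cells included Rasl11b at 1.82 and 3.43 and Ccn2 at 2.84 and 3.82. Itga11 differed by 1.26 and 2.01, Itgb3 by 1.28 and 2.02, Smad6 by 1.14 and 1.84 and Tgfb3 by 0.999 and 1.79, the Snail1-WT value first. In the other direction stood Chst11 at 1.53 and 0.78, Fgf2 at 1.41 and 0.77, Pdgfb at 1.17 and 0.52, Ust at 1.07 and 0.53 and Amigo2 at -1.45 and -0.73. Id2 differed by -0.73 and 0.48, and Klf5 by -0.99 and -0.19. Whether any of these genotype gaps exceeds the spread between cultures was not tested.

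**Figure D5:**
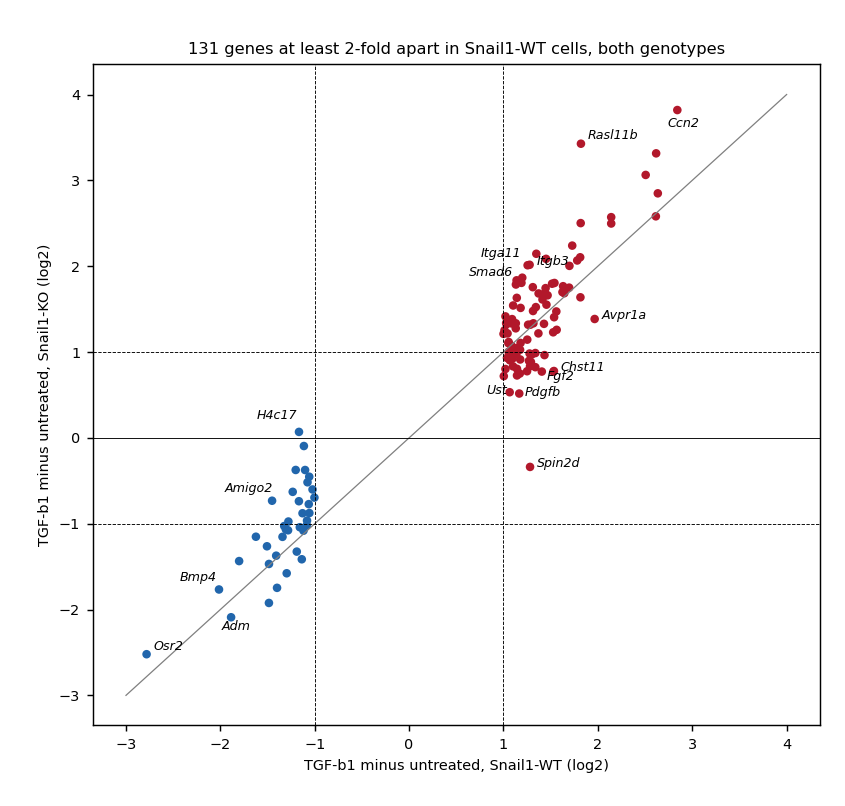
Difference after TGF-b1 in Snail1-KO cells (vertical axis, log2) against that in Snail1-WT cells (horizontal axis, log2) for the 131 genes at least 2-fold apart in Snail1-WT cells, red higher and blue lower; dashed lines mark 2-fold and the grey line equal differences. Nearly all points lie on the same side of 0 in both genotypes, with Spin2d at 1.28 and -0.34 and H4c17 at -1.17 and 0.07 as named exceptions.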

How the data were processed

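RNA of the 4 groups was measured on 4 Affymetrix arrays, 1 per group, after biotin labelling, per the labels' protocols. The authors deposited log2 values, and the submitters' processing notes name RMA and R 3.1.1. RMA gives the arrays nearly equal distributions, so a shift of most genes in 1 direction would not be visible. No genome build or annotation is named in the labels. Groups came from the sample titles. Of 41345 probe sets, 23521 carried 1 symbol in the platform annotation, 1814 several and 16010 none, and 1082 of 22180 genes had more than 1 probe set. Genes were ranked by their mean over the 4 arrays and the upper 60% kept, with means of at least 4.51. Precision is limited by the number of arrays.

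Differences are treated minus untreated log2 values. The noise SD is the median absolute deviation, scaled to an SD, among the 500 kept genes nearest in level, of the difference between both responses divided by the square root of 2. The procedure was tested on simulated data in which both genotypes were given the same changes. True disagreements between the genotypes were not part of that test. Named were kept genes at least 2-fold apart (gene models, clone-named transcripts, small RNAs and receptor or immunoglobulin segments left out of naming, not of counts), up to 6 kept members with the largest differences per list, TGF-b pathway genes, Snai1 and all markers. Members and the 60 lists were chosen with earlier results of these data known. Alternatives were a 1.5-fold threshold, no filter, 40% kept, median centring, cyclic loess (limma 3.58.1, R 4.3.3) and the mean of all probe sets. Python 3.11.15, numpy 2.4.6, pandas 2.3.3 and matplotlib 3.10.9 were used. Promoter sequences are RefSeq's, of GRCm38.p6, and lists were described by counts and medians, with no test. Some items of these data are not reported here.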

Additional observations from a re-analysis of the deposited data

Results flagged for a closer look

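Responses of opposite sign in the 2 genotypes were listed where the Snail1-WT difference of a kept gene was at least 2-fold, or where both differences were at least 1.5-fold; smaller opposite differences, such as that of Id2, are not listed. With 1 array per group none was tested. Spin2d was higher after TGF-b1 by 1.28 in Snail1-WT cells and differed by -0.34 in Snail1-KO cells. H4c17 differed by -1.17 and 0.07. Of the kept genes, 2 were at least 1.5-fold apart in opposite directions, Olfr370 at 0.66 in the Snail1-WT pair of arrays and -0.74 in the other, and Zfp458 at -0.72 and 0.64. Both fall outside the rule for named genes and were chosen after their values were seen.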

How the results depend on the processing

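At 1.5-fold the counts were 330 higher and 251 lower in place of 95 and 36. With no filter they were 106 and 48, with 40% of genes kept 83 and 25, with median centring 88 and 49, with cyclic loess 104 and 36, and after averaging all probe sets of a gene 94 and 35. Requiring both Snail1-WT arrays to reach the lowest kept mean, an alternative chosen after seeing the data, gave 91 and 31. All 404 named differences moved by less than their noise SD under centring and loess. Centring shifted every difference by the same -0.035, less in size than the lowest noise SD of 0.08. Its part of that result was therefore fixed in advance. With the mean of all probe sets 14 moved by more. Averaging can change only genes with more than 1 probe set, so the 14 do not compare with all 404. Of the 2-fold genes, 4 of the 95 higher and 2 of the 36 lower have more than 1 probe set. A reversal of sign was looked for only in genes at least 2-fold apart, and 0 were found, though centring could not have given one. With the mean of all probe sets Ccn2 was at 1.95, Foxo1 at 1.13, Foxq1 at 1.07, Rgs2 at -0.78, Spin2d at 0.56 and Dusp6 at 0.40. The medians of all 60 lists moved by less than the median noise SD of their members, but medians near 0 have no firm direction. That limit was at least 0.08, and many list medians are smaller in size. A median could therefore change sign and still be counted as unmoved. No paired analysis was possible because each group has 1 array and the labels carry no replicate numbers. Leaving out an array leaves no difference to compute.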
